A study of Mus musculus with 2 samples.

Results

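The glycolysis and hypoxia response genes were followed in diabetogenic CD4 T cells with and without a tolerizing nanoparticle. They are 35 genes of the 54532 gene rows in the deposited table, chosen by symbol for their place in glucose breakdown, lactate export or oxygen sensing. Earlier results of these data were known when they were chosen. Aldoa has 2 rows, and the one with the larger count sum was kept. The cells were BDC-2.5 effector T cells, T cells of a receptor-transgenic line whose receptor recognises beta cells of the pancreas. In both groups they were activated and given to NOD.scid recipients, non-obese diabetic mice with no T or B cells of their own. From spleen and lymph nodes, CD4-positive cells negative for a GFP reporter of Foxp3 were sorted 6 days later. Mice of the 2.5HIP-PLG group had received 1.75 mg of nanoparticles by vein on day 1, made of the polymer PLG and loaded with a hybrid insulin peptide that this receptor recognises, and Untreated mice had not. Each group is 1 library from 4 pooled mice, whose age is not given in the sources used here.

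Glycolysis turns glucose into pyruvate in the cytosol, and activated T cells raise it and send much of the pyruvate to lactate even when oxygen is present. Hypoxia-inducible factor 1 is a pair of proteins, HIF-1α from Hif1a and its partner from Arnt. Prolyl hydroxylases (Egln genes) mark HIF-1α when oxygen is present, and the VHL protein then has it degraded. When it accumulates, for lack of oxygen or after T cell receptor and growth signals, the factor switches on glucose transporters, most glycolytic enzymes and genes such as Bnip3, P4ha1 and Ankrd37. Its binding site, the hypoxia response element, has the core ACGTG or GCGTG.

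Library totals were 22580648 counts for 2.5HIP-PLG and 26036623 for Untreated, so 1 read was worth 0.0443 and 0.0384 CPM (counts per 1e6 counts of the library). Each ratio below is 2.5HIP-PLG over Untreated in CPM, and the exact 95% interval beside it reflects counting error alone. With 1 library per group there was no replicate check and no test, and the ratios describe these libraries. A gene was called higher or lower when its ratio was at least 1.5 in that direction and its interval excluded 1. A gene was taken as tested when its counts summed to at least 20. In bulk RNA, more cells that express a gene and more RNA per cell cannot be told apart.

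Of the 35 genes, 34 could be tested, and 6 of them were called higher and 0 lower. Over all 13902 genes tested, 5.15% were called higher and 9.7% lower. The 6 were Slc16a3, Hif1a, Ankrd37, Tpi1, Bnip3 and Aldoc. Most of the other genes were higher by less than the rule asks. The interval lay above 1 for 23 of the 34 and below 1 for 2, and it held 1 for 9, while over all genes tested it lay above 1 for 24.3% and below 1 for 26.3%. Abundant genes have narrower intervals, so members whose 2 counts summed to 2500 or more were set beside genes of that abundance. Of those 21 members 15 lay above 1 and 2 below, against 38.6% and 31.8% of 4218 genes, and 2 were called higher and 0 lower, against 2.68% and 2.54%. The median log2 ratio was 0.33 over the 34 members, from -0.40 to 1.59, and -0.01 over all genes tested.

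Under a looser rule that asks for a ratio 25% above 1, or its inverse, 18 members were higher and 1 (Ero1l) lower, against 10.2% and 15.3% of all genes. At a ratio of 2 only Hif1a and Slc16a3 were left, against 2.78% of all genes higher and 5.81% lower.

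**Figure D1:**
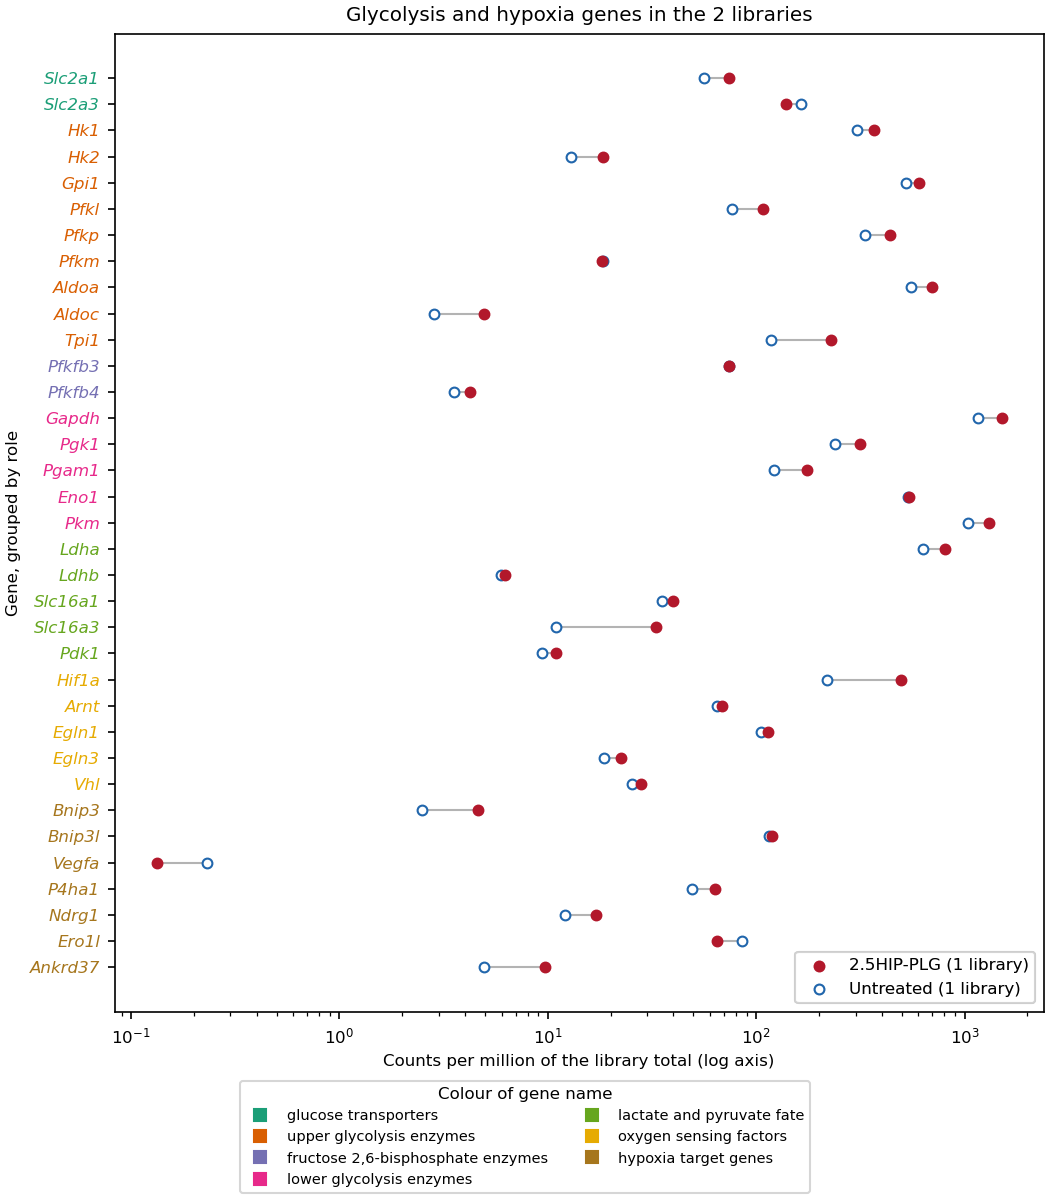
CPM on a log axis for each of the 35 genes, with filled points for the 2.5HIP-PLG library, open points for the Untreated library and the gene names coloured by role. Gapdh stands highest with 1503 and 1165 CPM, Vegfa the scarcest with 3 and 6 counts, and the widest gaps among abundant genes are those of Hif1a and Tpi1.

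**Figure D2:**
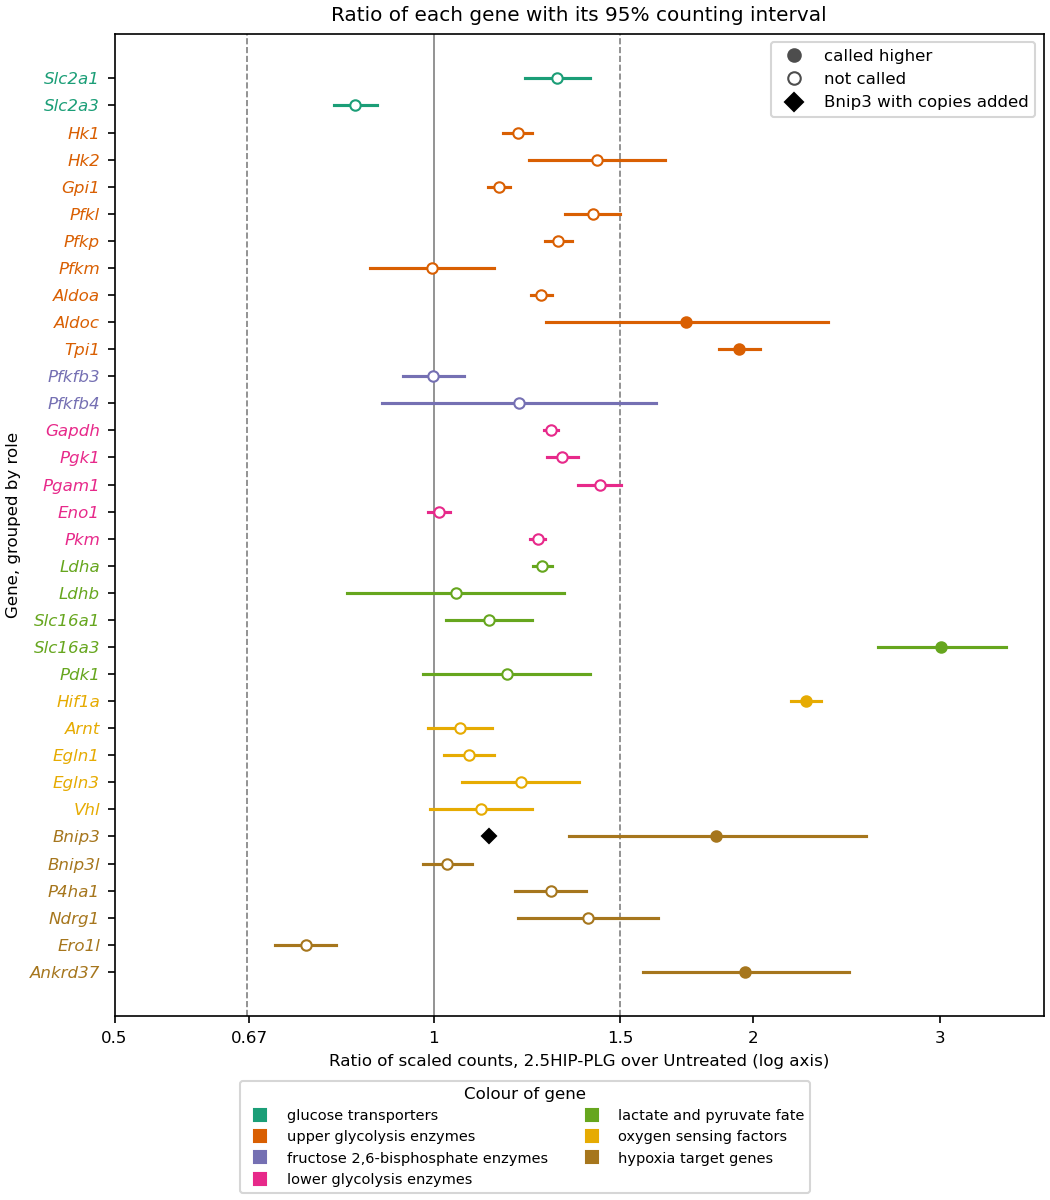
Ratio of each of the 34 tested genes on a log axis with its exact 95% counting interval, filled where the gene was called higher, and dashed lines at 1.5-fold in either direction. Slc16a3 stands furthest right at 3.01, only Slc2a3 and Ero1l have intervals wholly below 1, and the black diamond shows Bnip3 at 1.13 once the reads of its near-identical copies are added.

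Promoters of the genes on which the results turn are shown so that the response element cores can be seen beside the values. RefSeq promoter windows of 300 bases each (GRCm38.p6) were matched by symbol for 31 of the 35 genes, all but Slc2a3, Bnip3l, Ndrg1 and Ero1l. Only bases before the RefSeq start that lie in no annotated exon are printed, 5′ to 3′ on the gene's strand, with each core on either strand in capitals (ACGTG or GCGTG, or CACGT or CACGC where it lies on the other strand).
Slc16a3, chr11:120948817-120949052, plus strand: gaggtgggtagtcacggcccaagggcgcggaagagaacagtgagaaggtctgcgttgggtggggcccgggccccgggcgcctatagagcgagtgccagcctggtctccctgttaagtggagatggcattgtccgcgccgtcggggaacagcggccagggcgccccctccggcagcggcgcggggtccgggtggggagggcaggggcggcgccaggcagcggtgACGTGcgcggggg
Hif1a, chr12:73907617-73907866, plus strand: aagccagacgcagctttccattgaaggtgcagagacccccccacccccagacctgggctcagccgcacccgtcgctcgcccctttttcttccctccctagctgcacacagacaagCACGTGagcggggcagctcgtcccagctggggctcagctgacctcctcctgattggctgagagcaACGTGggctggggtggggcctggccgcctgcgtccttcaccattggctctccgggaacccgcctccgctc
Ankrd37, chr8:45999868-46000100, minus strand: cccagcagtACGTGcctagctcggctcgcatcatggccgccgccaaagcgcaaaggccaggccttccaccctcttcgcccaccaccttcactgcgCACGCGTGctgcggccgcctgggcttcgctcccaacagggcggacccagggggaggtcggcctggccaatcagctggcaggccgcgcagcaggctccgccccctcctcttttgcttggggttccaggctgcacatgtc
Tpi1, chr6:124814297-124814408, minus strand: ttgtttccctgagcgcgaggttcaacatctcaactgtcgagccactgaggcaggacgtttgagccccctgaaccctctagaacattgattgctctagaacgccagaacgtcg
Ldha, chr7:46845554-46845803, plus strand: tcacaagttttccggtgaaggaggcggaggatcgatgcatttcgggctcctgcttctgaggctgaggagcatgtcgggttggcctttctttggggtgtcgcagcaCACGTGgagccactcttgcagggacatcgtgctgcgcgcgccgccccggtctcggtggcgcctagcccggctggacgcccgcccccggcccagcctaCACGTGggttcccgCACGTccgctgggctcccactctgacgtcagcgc
Ldha is the 1 uncalled enzyme shown, and its full window held 7 cores, the most of any member window. The windows of the uncalled Gpi1 and Pfkl held 0 and 1. Bnip3 and Aldoc were called but are not printed, and their stretches outside exons held 5 and 0 cores. The stretch shown for Tpi1 holds no core. In Ldha and Hif1a some cores lie in CACGTG, a palindrome that reads as ACGTG on both strands and is also the site of Myc-type factors. A core was found in 36 of 45 member windows (80.0%), in 61.5% of 12318 windows of the genes tested here and in 43.8% of all 32851 windows. For ACGTG alone these shares were 53.3%, 25.4% and 19.6%, and for CACGTG they were 13.3%, 9.9% and 7.15%. Of the 6 genes called higher, 5 had a core in a full window and Tpi1 had none, against 28 of all 31 matched members (90.3%). Such a match is a description of the letters and not a site shown to be bound.

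Glucose enters T cells mainly through GLUT1, encoded by Slc2a1, and GLUT3, encoded by Slc2a3, and the ratios of these genes lay on opposite sides of 1. Slc2a1 (chromosome 4, 119108711 to 119137983, GRCm38) had 1667 counts with 2.5HIP-PLG against 1469 in the control, giving a ratio of 1.31 (1.22 to 1.40). Slc2a3 (chromosome 6, 122727809 to 122801640) had 3134 and 4285 counts, a ratio of 0.843 (0.805 to 0.883). Neither reached the rule. Slc2a1 made up 34.7% of the counts of the pair after 2.5HIP-PLG (exact binomial interval 33.4 to 36.1) and 25.5% without (24.4 to 26.7), a share that does not depend on scaling between libraries. Summed, the pair had 213 and 221 CPM, a ratio of 0.962 (0.926 to 1.00), the lowest of the 13 steps from glucose entry to lactate transport.

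Of the 9 genes of the upper, energy-consuming stretch of glycolysis 2 were called higher, against 5.15% of all genes tested. The median log2 ratio of the 9 was 0.39 and 8 of 9 intervals lay above 1. Over all genes tested 24.3% lay above 1, and over those with a count sum of at least 2500, 38.6%. Triose phosphate isomerase, which interconverts the 3-carbon products of aldolase, stood out. Its gene Tpi1 (chromosome 6, 124810586 to 124814296) had 5139 counts with 2.5HIP-PLG against 3051 in the control, giving a ratio of 1.94 (1.86 to 2.03). Its length-scaled level (counts per base of merged exon, set to a sum of 1e6 in each library) was 255 and 133, rank 556 and 1151 of all rows. A near-identical copy added only 4 and 0 counts, and Spsb2, which overlaps it on the opposite strand, had 44 and 74.

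Aldolase cuts fructose bisphosphate, and its main form per length here was Aldoa, at 735 and 592 against 4.64 and 2.73 for Aldoc. Aldoa (chromosome 7, 126795234 to 126800751) had 15696 and 14328 counts, a ratio of 1.26 (1.24 to 1.29). The brain-type form Aldoc (chromosome 11, 78322968 to 78327781) was called higher but rested on 111 and 74 counts, with a ratio of 1.73 (1.28 to 2.35). It made up 0.702% and 0.514% of aldolase counts, and these intervals (0.578 to 0.845 and 0.404 to 0.645) overlapped.

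Hexokinases phosphorylate glucose on entry, and Hk1 (chromosome 10) outnumbered the inducible Hk2 (chromosome 6) in both libraries. Hk1 had 8258 and 7938 counts, a ratio of 1.2 (1.16 to 1.24), and a length-scaled level of 132 and 112. Hk2 had 414 and 335 counts, a ratio of 1.43 (1.23 to 1.65), and a length-scaled level of 9.46 and 6.75. The share of Hk2 in hexokinase counts, 4.77% and 4.05%, had overlapping intervals (4.34 to 5.24 and 3.64 to 4.497). Gpi1, the isomerase of the next step, had 13618 and 13628 counts and a ratio of 1.15 (1.13 to 1.18).

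Phosphofructokinase commits sugar to glycolysis and is built from liver (Pfkl), platelet (Pfkp) and muscle (Pfkm) type subunits. Pfkp, which overlaps Pitrm1 on the opposite strand, had 9894 and 8706 counts (ratio 1.31, 1.27 to 1.35) and the highest length-scaled level of these subunits, 101 and 78.1. Pfkl had 2440 and 1993 counts (1.41, 1.33 to 1.498). Pfkm, which overlaps Senp1 on the opposite strand, had 413 and 478 counts (0.996, 0.871 to 1.14). The muscle-type subunit thus made up less of the sum after 2.5HIP-PLG, 3.24% (2.94 to 3.56) against 4.28% (3.91 to 4.67).

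Fructose 2,6-bisphosphate activates phosphofructokinase and is made by the Pfkfb enzymes, and neither member differed beyond counting error. Pfkfb3 had 1677 and 1936 counts (0.999, 0.935 to 1.07), and Pfkfb4 had 96 and 92 (1.2, 0.895 to 1.62). Pfkfb3 made up 94.6% and 95.5% of the counts of the pair.

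In the lower stretch, which yields ATP and pyruvate, none of 5 genes was called. Among genes with a count sum of at least 2500, 2.68% were higher and 2.54% lower. Of the 5 genes 4 had intervals above 1, against 38.6% of genes of that abundance. The exception was the enolase gene Eno1 (chromosome 4, 150236721 to 150248879), with 12217 and 13922 counts and a ratio of 1.01 (0.988 to 1.04). Eno1 shares long near-identical stretches with Eno1b (4783 and 5411 counts) and the pseudogene Gm4735 (3784 and 4327), and with the reads of all its copies added the ratio was again 1.01 (0.994 to 1.03). Gapdh (chromosome 6, 125161715 to 125166467), which reduces NAD+, had 33945 and 30329 counts, a ratio of 1.29 (1.27 to 1.31). It has 127 near-identical copies in the annotation that together took 20488 and 17686 counts, and the ratio with these added was 1.31 (1.29 to 1.32). Pgk1 (chromosome X), the kinase that makes the pathway's earliest ATP, had 7110 and 6201 counts and a ratio of 1.32 (1.28 to 1.37). The mutase Pgam1 (chromosome 19) had 3960 and 3184 counts, at 1.43 (1.37 to 1.503) the closest of the uncalled enzymes to the rule. Pkm (chromosome 9, 59656368 to 59679375), pyruvate kinase, had 29432 and 27073 counts and a ratio of 1.254 (1.23 to 1.27).

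With isozymes summed at each step, 11 of the 13 steps from glucose entry to lactate transport had intervals above 1, with ratios between 1.15 and 1.94, and the exceptions were glucose entry and enolase. Of single genes with a count sum of at least 2500, 38.6% had intervals above 1. The 16 enzyme genes from hexokinase to lactate dehydrogenase took 0.713% of all counts after 2.5HIP-PLG (0.709 to 0.716) and 0.568% without (0.565 to 0.571), a ratio of 1.254 (1.246 to 1.26). Without Gapdh, Pkm and Aldoa the ratio of the remaining 13 was 1.24 (1.23 to 1.251).

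**Figure D3:**
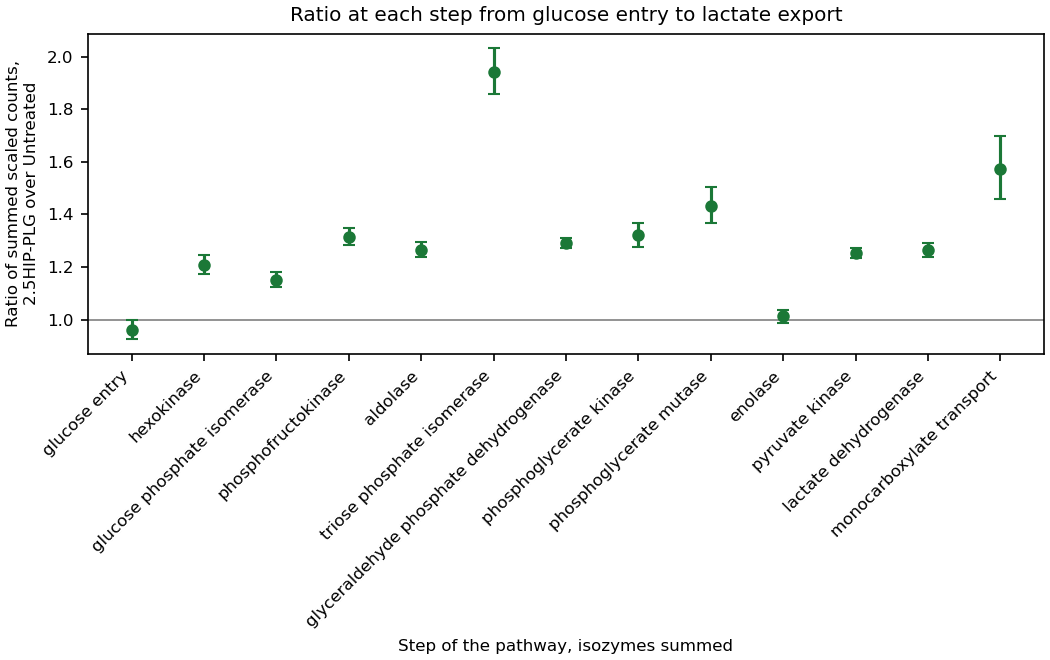
Ratio of summed scaled counts, 2.5HIP-PLG over Untreated, at 13 steps in pathway order, with exact 95% counting intervals; steps with several genes are sums over these. Triose phosphate isomerase (1.94) and monocarboxylate transport (1.57) stand highest, and glucose entry (0.962) and enolase (1.01) lie lowest.

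At the end of the pathway the lactate exporter had the largest ratio of all members. Slc16a3 (chromosome 11, 120948480 to 120960868), which encodes the monocarboxylate transporter MCT4, had 744 counts with 2.5HIP-PLG against 285 in the control, giving a ratio of 3.01 (2.62 to 3.46). Of all genes tested, 98.8% had a lower log2 ratio. Slc16a1, which encodes MCT1, a transporter of lactate in either direction, had 898 and 918 counts (1.13, 1.03 to 1.24). Slc16a3 therefore made up 45.3% of the counts of the pair after 2.5HIP-PLG (42.9 to 47.8) and 23.7% without (21.3 to 26.2).

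Lactate dehydrogenase was almost wholly the A form in both libraries, with length-scaled levels of 747 and 600 for Ldha and 12.2 and 11.9 for Ldhb. Ldha (chromosome 7, 46841475 to 46855627), whose enzyme favours lactate, had 18131 and 16511 counts and a ratio of 1.27 (1.24 to 1.29). Ldhb had 141 and 155 counts (1.05, 0.829 to 1.33), which is 0.772% and 0.93% of the counts of the pair. Pdk1, the kinase that shuts pyruvate out of mitochondrial oxidation, had 247 and 243 counts, and its interval held 1 (1.17, 0.978 to 1.41).

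**Figure D4:**
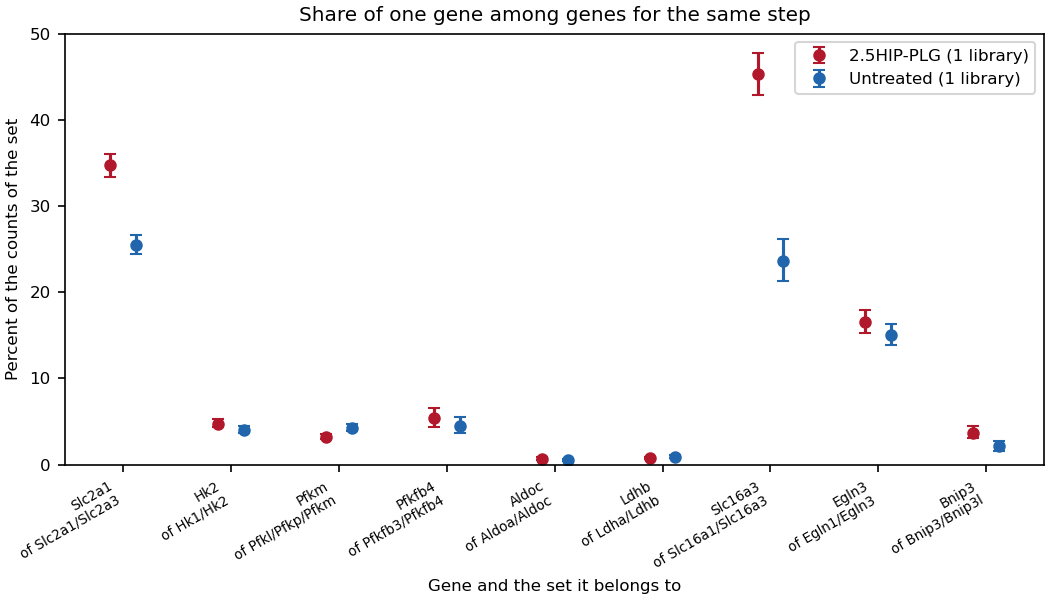
Share of 1 gene in the summed counts of the genes for the same step, in percent, for 9 sets, with exact binomial 95% intervals for counting error in each library. The intervals of the 2 libraries stand clear of each other for Slc2a1, Pfkm, Slc16a3 and, without its copies, Bnip3, and they overlap for the other 5. Overlap of the separate intervals does not show that the shares were equal.

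Among the oxygen sensing genes Hif1a alone was called. Hif1a (chromosome 12, 73901375 to 73947530) had 11136 counts with 2.5HIP-PLG against 5723 in the control, giving a ratio of 2.24 (2.17 to 2.32), and its length-scaled level was 258 and 117, close to that of Tpi1. Its counts were not whole. The genes that overlap it, Gm15283 and Gm49321, were given 21 and 10 counts and 0 and 5 counts, and how reads were divided among them was not tested. Arnt, the partner subunit, had 1545 and 1682 counts (1.06, 0.988 to 1.14).

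The genes that restrain HIF-1α differed less. Egln1, the main oxygen-sensing prolyl hydroxylase, had 2567 and 2743 counts (1.08, 1.02 to 1.14), and Egln3, itself a HIF target, had 509 and 486 (1.21, 1.06 to 1.37). Vhl had 632 and 657 (1.11, 0.993 to 1.24). Egln3 made up 16.5% and 15.0% of the counts of the pair of hydroxylases, with overlapping intervals (15.3 to 17.9 and 13.8 to 16.3).

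The gene of the alternative alpha subunit was lower. Epas1, which encodes HIF-2α and is no member, had 1008 counts with 2.5HIP-PLG against 1983 in the control and was called lower, by 1.71-fold (1.58 to 1.84). Hif1a made up 91.7% of the counts of these alpha subunits after 2.5HIP-PLG (91.2 to 92.2) and 74.3% without (73.3 to 75.2), a pair that was set together after its values were seen. Arnt2, a relative of Arnt, was lower too, with 323 and 707 counts (1.898-fold, 1.66 to 2.17). Of 14 other oxygen sensing genes tested, these 2 were lower and 0 higher, against 9.7% and 5.15% of all genes (median log2 ratio -0.07). The interval lay above 1 for 3, below 1 for 5 and held 1 for 6, against 24.3% above and 26.3% below for all genes. Egln2 (1196 and 1327 counts) and Hif1an, the factor-inhibiting hydroxylase (1201 and 1443), had intervals that held 1.

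Of the 7 hypoxia target genes 6 could be tested, and 2 were called higher and 0 lower, against 5.15% and 9.7% of all genes. Their median log2 ratio was 0.42, and the interval lay above 1 for 4, below 1 for 1 and held 1 for 1. Ankrd37 (chromosome 8, 45996902 to 46005707), a small ankyrin repeat gene and a direct target of HIF-1, had 220 and 129 counts, a ratio of 1.97 (1.58 to 2.46). It overlaps Ufsp2 on the opposite strand, which had 633 and 583 counts. Bnip3 (chromosome 7, 138890836 to 138909519), a mitophagy receptor, had 104 and 65 counts, a ratio of 1.85 (1.34 to 2.56). That call did not hold when near-identical copies were counted with it, because the non-coding copy AC160336.1, alike at 98.3% of 858 aligned bases, had 111 and 164 counts. With all copies added the ratio was 1.13 (0.935 to 1.36), so a difference in Bnip3 itself is uncertain.

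P4ha1, a collagen prolyl hydroxylase, had 1434 and 1283 counts (1.29, 1.19 to 1.39), and the stress-response gene Ndrg1 had 383 and 316 (1.398, 1.201 to 1.63). Bnip3l, the other mitophagy receptor of this family, had 2686 and 3006 counts (1.03, 0.978 to 1.09). Ero1l, an oxidase that helps proteins fold in the endoplasmic reticulum, had 1464 and 2229 counts and the lowest ratio of the tested members, 0.757 (0.709 to 0.809). Vegfa, which encodes the vascular growth factor, was close to absent at this depth with 3 and 6 counts, and its ratio of 0.577 (0.0933 to 2.70) leaves no direction.

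For further hypoxia targets outside the members, calls went in both directions. Of 28 tested, 3 were higher and 3 lower, against 5.15% and 9.7% of all genes, and the median log2 ratio was 0.08. The interval lay above 1 for 13, below 1 for 5 and held 1 for 10, against 24.3% above and 26.3% below for all genes. Under upper quartile scaling, or totals without the 20 most abundant rows, 4 were lower, and Bhlhe40, a transcription factor with 9648 and 16682 counts, lay at the edge of the rule (ratio 0.667, 0.6503 to 0.684). The higher ones were Plod2, a lysyl hydroxylase with 309 and 163 counts (2.19, 1.802 to 2.66), Fam162a, with 527 and 350 (1.74, 1.51 to 1.99), and Ak4, a mitochondrial adenylate kinase with 22 and 8 (3.17, 1.36 to 8.24), a call lost at a count minimum of 100. The lower ones were Rora, a nuclear receptor with 864 and 2454 counts (2.46-fold, 2.28 to 2.67), Stc2, with 225 and 546 (2.11-fold, 1.799 to 2.47), and the metallothionein Mt1, with 116 and 222 (1.66-fold, 1.32 to 2.096). Car9, a widely used hypoxia marker, was near the limit of detection with 8 and 5 counts.

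Glycolysis genes outside the members were mostly not called. Of 15 other isozymes and transporters tested, 3 were lower and 0 higher, against 9.7% and 5.15% of all genes. The interval held 1 for 8 of the 15, lay below 1 for 6 and above for 1, and the median log2 ratio was -0.29. They were Adpgk, an ADP-dependent sugar kinase (429 and 754 counts; 1.52-fold, 1.35 to 1.72), Pfkfb2 (122 and 232; 1.65-fold, 1.32 to 2.07) and the D-lactate dehydrogenase Ldhd (26 and 66; 2.2-fold, 1.38 to 3.61). Slc2a2, Slc2a4, Hkdc1 and Pgk2 had 0 counts in both libraries, which allows up to 0.133 and 0.115 CPM. Of the routes that leave glycolysis, 0 of 8 pentose phosphate genes were called (median 0.08), 0 of 11 genes for pyruvate entry into mitochondria (median -0.04) and 0 of 2 tested genes of gluconeogenesis. The interval lay above 1 for 3 of the 8 pentose phosphate genes and below 1 for 2. For the 11 pyruvate entry genes it lay above 1 for 1 and below 1 for 2. Among 17 genes of the serine, glycogen, glycerol and hexosamine branches only the liver-type glycogen phosphorylase Pygl was called, lower with 28 and 72 counts, and the median was 0.21. The interval lay above 1 for 8 of the 17 (47.1%), below 1 for 2 and held 1 for 7. Over all genes it lay above 1 for 24.3% and below 1 for 26.3%, so small differences above 1 were not confined to the members.

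Among 19 genes of growth signals that raise or restrain glycolysis, 2 were higher and 0 lower, against 5.15% and 9.7% of all genes. The interval lay above 1 for 4, below 1 for 10 and held 1 for 5. The median log2 ratio was -0.09, but it mixes genes of opposite effect and gives no direction for the signals. The 2 called higher were transcription factors. Irf4 had 3917 and 1335 counts (3.38, 3.18 to 3.603) and Batf had 1988 and 1434 (1.599, 1.49 to 1.71). Myc, a direct activator of glycolytic genes, had 1115 and 1734 counts, a ratio of 0.741 (0.687 to 0.7998). Mtor had 1107 and 1282 counts and a ratio of 0.996 (0.918 to 1.08). Txnip, which limits glucose uptake and is itself induced by glucose, had 14205 and 23176 counts, a ratio of 0.707 (0.692 to 0.722).

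Other pathways and the cell markers show how far small differences above 1 were shared. Of 18 DNA replication genes, 17 had intervals above 1 and 1 (Mcm6) was called higher, with a median log2 ratio of 0.26. Of 77 nuclear respiratory chain genes 0 were called, with a median of 0.07, and the interval lay above 1 for 28 (36.4%), below 1 for 6 and held 1 for 43. Over all genes tested 5.15% were called higher, and intervals lay above 1 for 24.3% and below 1 for 26.3%. For genes with a count sum of at least 2500, 38.6% lay above 1 and 31.8% below, so the respiratory chain share above 1 was near that of abundant genes. The 12 CD4 T cell identity genes, with 0 calls, summed to 10380 and 8905 CPM. All but Thy1 (0.868, 0.854 to 0.881) had intervals above 1, from Lck at 1.024 (1.007 to 1.041) to Cd28 at 1.449 (1.403 to 1.496). Cd3e lay at 1.35 and Cd4 at 1.211, beside 1.254 for the summed glycolysis enzymes. Differences of that size were thus shared by T cell identity genes. Most markers of other cells were present at low levels, and they differed in both directions. Of 5 mast cell and basophil genes 4 could be tested and 3 were higher, led by Prss34 (199 and 54 counts), Mcpt8 (116 and 22) and Cpa3 (44 and 14), and the list summed to 17.0 and 3.76 CPM. Of 8 neutrophil genes 4 could be tested and 2 were higher (14.2 and 4.03 CPM summed), and of 8 macrophage and monocyte genes 6 could be tested and 2 were higher (23.5 and 22.4 CPM). Of 8 stromal and endothelial genes 4 could be tested and 2 were higher (130.5 and 101.3 CPM). Nearly all of that sum was Pecam1, which was not called (126.2 and 98.8 CPM). The dendritic cell list was lower in sum (64.6 and 89.9 CPM), with 1 of 6 tested genes, Itgax, called lower (108 and 320 counts). Of 5 NK cell genes 2 were higher and 2 lower (18.5 and 18.8 CPM), and of 8 erythroid genes 1 was higher and 1 lower (58.9 and 59.2 CPM). Of 6 B cell genes only Ighm could be tested, and it was called higher (3761 and 2641 counts; 1.64, 1.56 to 1.73). The B cell list summed to 167 and 102 CPM, nearly all of it Ighm, while Ms4a1 was at 0 in both libraries. The scarcer called members lie in the range of such levels, Bnip3 with 4.61 and 2.496 CPM, Aldoc with 4.92 and 2.84 CPM, Ankrd37 with 9.74 and 4.96 and Slc16a3 with 33.0 and 10.95, and the part of other cells in the ratios of any member was not tested. Hif1a had 493 and 220 CPM, and Tpi1 had 228 and 117.

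**Figure D5:**
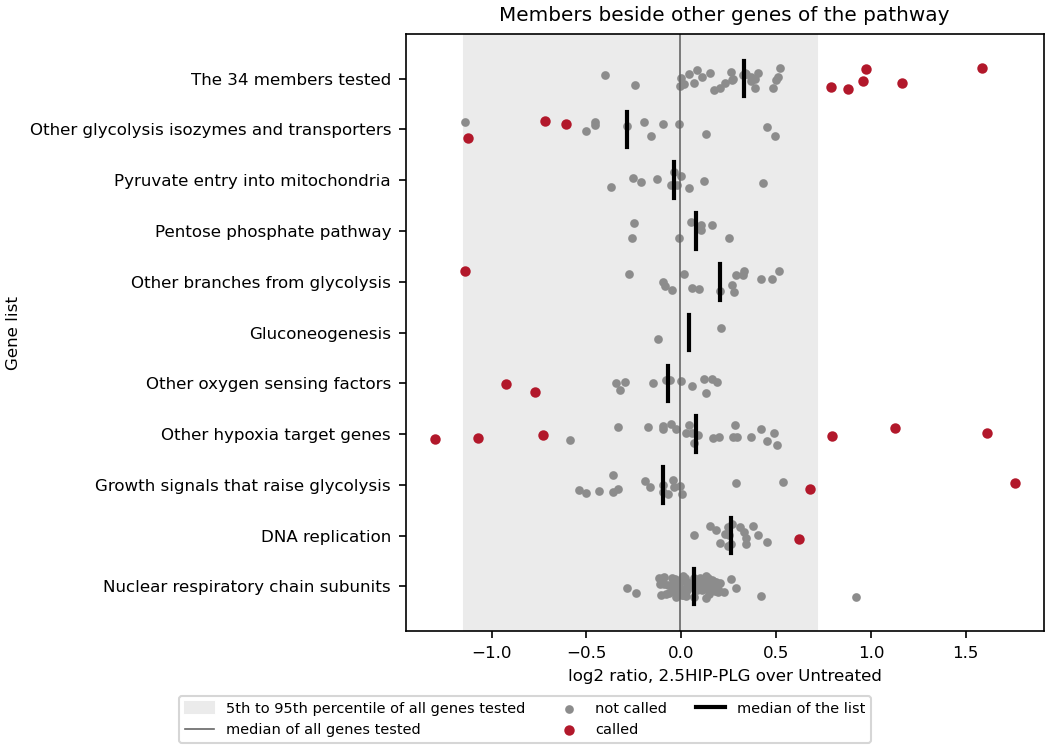
Log2 ratio of each tested gene, 2.5HIP-PLG over Untreated, for the members and for 10 other lists, with red points for called genes, black bars for the median of each list and grey shading from the 5th to the 95th percentile of all genes tested (-1.14 to 0.72). The median of the members (0.33) stands furthest right and that of the other glycolysis isozymes and transporters (-0.29) furthest left.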

How the data were processed

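The members and gene lists were chosen with earlier results of these data known. Per the labels' protocols, extraction used Qiagen's RNeasy Plus Mini Kit, and libraries came from a NuGen kit for mRNA (Universal Plus). The submitters' processing notes name STAR, RSEM 1.3.1 and the build GRCm38, and the annotation and strand setting were not given in the sources used here. Deposited values are the authors' expected counts, in which reads that fit several genes are divided, so 11.1% and 11.8% of rows were not whole. They were rounded, and 20 of the 35 members were whole in both libraries.

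Counts were scaled by column total. Intervals are exact conditional binomial (Clopper-Pearson) 95% intervals, computed with scipy 1.17.1 (Python 3.11.15). No molecular identifiers are described, so intervals and limits for a count of 0 (3 counts) cover counting error only. Log2 ratios had 0.5 counts added. Near-identical copies are rows elsewhere in the genome whose GENCODE M21 transcripts matched a member at 95% identity over at least 200 bases (BLAST 2.17.0) or named as its pseudogene. Length-scaled levels divide counts by merged exon length (M21) and are set to a sum of 1e6, so they understate genes with many alternative exons. Alternatives used edgeR 4.0.16 and DESeq2 1.42.0 (R 4.3.3). The calculation was run on simulated counts that varied by counting error alone. That run checks the arithmetic and cannot show how ratios vary between mice or preparations. Named were all members, the called genes of each list (at most 4, by absolute log2 ratio) and Myc, Mtor, Txnip, Epas1, Egln2 and Hif1an. Of a list of another cell type, the 3 most abundant markers were named where over 50% of its tested genes were called in 1 direction. Car9, Bhlhe40, Itgax, Ighm, Pecam1, single CD4 T cell identity genes, genes at 0 counts and genes that overlap or copy a member were named after their values were seen. Pdk2 and Pdk3 were likewise named after their values were seen.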

Additional observations from a re-analysis of the deposited data

How the results depend on the processing

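The 6 calls were the same genes under edgeR's TMM, DESeq2's median of ratios, upper quartile scaling, totals without the 20 most abundant rows, unrounded counts, a 99% interval, and count minimums of none and 100. Under these scalings the median log2 ratio of all genes lay between -0.02 and 0.003. At a ratio of 2 the members called higher fell to 2, and at a ratio 25% above 1 they numbered 18 higher and 1 lower. With near-identical copies added, 5 calls held and Bnip3 was lost (log2 ratio 0.17 in place of 0.88). The ratio of the summed enzyme counts was 1.24 without Gapdh, Pkm and Aldoa, outside the narrow counting interval of the sum. No paired analysis was possible because each group has 1 library. The reproducibility of any ratio between mice or preparations was not measured. Depth limits Vegfa, Aldoc, Bnip3, Pfkfb4 and Ldhb, whose intervals are wide.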
